A study of Mus musculus with 12 samples.

Results

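The 78 genes described here encode mitochondrial ribosomal proteins. They were taken as the protein-coding genes whose RefSeq mouse symbol starts with Mrpl or Mrps followed by a number and whose mean raw count over the libraries was at least 10. The table listed 27179 genes, and all 78 protein-coding genes with such a symbol passed that minimum. The least abundant was Mrpl36, with a mean of 19.8 counts per library. By the usual assignment of mammalian subunits, 51 of them belong to the large subunit (Mrps18a and Mrps30 among them, despite their names) and 26 to the small subunit. Mrps36 kept its symbol in the annotation but is known as a component of the 2-oxoglutarate dehydrogenase complex, so it was kept in the counts and described apart.

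The mitochondrial ribosome translates the few messenger RNAs encoded by mitochondrial DNA, which specify core subunits of the oxidative phosphorylation complexes. Its ribosomal RNAs are transcribed from mitochondrial DNA, whereas all its proteins are encoded in the nucleus, made in the cytosol and imported. Hematopoietic stem cells are largely quiescent and are described as relying less on oxidative phosphorylation than their progeny.

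RNA was sequenced from sorted hematopoietic stem cells of 12 C57BL/6J mice, 3 of each of 4 genotypes, with 1 library each. WT mice (libraries WT2, WT3 and WT4) were wild type. E mice (E1 to E3) carried the Emu-myc transgene, in which Myc is placed under the immunoglobulin heavy chain enhancer, an element active mainly in B-lineage cells. C mice (C1 to C3) lacked Casp1 and Casp11, which encode inflammatory caspases (genotype Casp1 -/- Casp11 -/-), and CE mice (CE1 to CE3) combined the Emu-myc transgene with Casp1 -/- Casp11 -/-. The labels gave neither age nor sex.

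The libraries held 24529611 to 34065910 counts each. Levels are given as counts scaled to library size (CPM). Casp1 lay at 29.8 to 47.8 CPM in WT and E libraries and at 5.10 to 6.76 CPM in C and CE libraries. Casp4, the annotated symbol of Casp11, lay at 12.04 to 17.2 CPM and at 7.07 to 13.7 CPM. Myc was at 394 to 447 CPM in WT and 424 to 449 CPM in E (log2 fold change 0.03, adjusted p = 0.967 by edgeR), and at 319 to 337 CPM in C and 345 to 409.5 CPM in CE. Averaged over both backgrounds, Myc was lower in the caspase-deficient groups by a log2 fold change of -0.31 (adjusted p = 0.00816). Stem cell markers such as Kit and Meis1 were detected in every group, with 12 of them summing to 685 to 1020.1 CPM. Neutrophil-lineage genes summed to 8327 to 13277 CPM, mostly from the progenitor granule gene Mpo, and T and NK genes to 158 to 283 CPM. Summed Y-linked transcripts were 91.4 to 121 CPM in all C libraries, CE1 and CE2, but at most 0.263 CPM in CE3 and in all WT and E libraries. The caspase genotype therefore nearly coincided with the presence of Y-linked transcripts, and apart from CE3 the contributions of genotype and sex cannot be told apart. CE3 also had the highest Myc level of the C and CE libraries, 409.5 CPM, above WT4 at 394 CPM. More genes had a count in C1 and C3 (22900 and 21247) than in the other libraries (17310 to 18863). In bulk libraries, less RNA per cell and fewer cells of a type cannot be told apart.

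Expressed per kilobase of transcript, the genes spanned a wide range of levels. Among large-subunit genes Mrpl33, one of the smallest proteins of the subunit, was highest at a mean of 218 CPM per kb over the 12 libraries, followed by Mrpl34 at 179 CPM per kb and Mrpl52 at 168 CPM per kb. At the other end were Mrpl1 at 5.94, Mrpl47 at 5.05 and Mrpl36 at 0.754 CPM per kb. Among small-subunit genes Mrps21 (104 CPM per kb), Mrps24 (92.4 CPM per kb) and Mrps34 (89.5 CPM per kb) led, and Mrps5 (10.04 CPM per kb), Mrps25 (8.79 CPM per kb) and Mrps17 (3.93 CPM per kb) were lowest. The division used the longest annotated protein-coding transcript, so a gene expressed mainly as a shorter transcript ranks too low on this scale. Mrpl33 had 268 ± 46.5 CPM per kb in WT and 178 ± 13.7 in CE (SD, n = 3 each), Mrpl34 had 208 ± 36.6 and 162 ± 16.6, and Mrpl52 had 202 ± 40.7 and 153 ± 19.1. In WT, Mrpl33 and Mrpl34 overlapped within their SD, and so did Mrpl34 and Mrpl52.

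**Figure D1:**
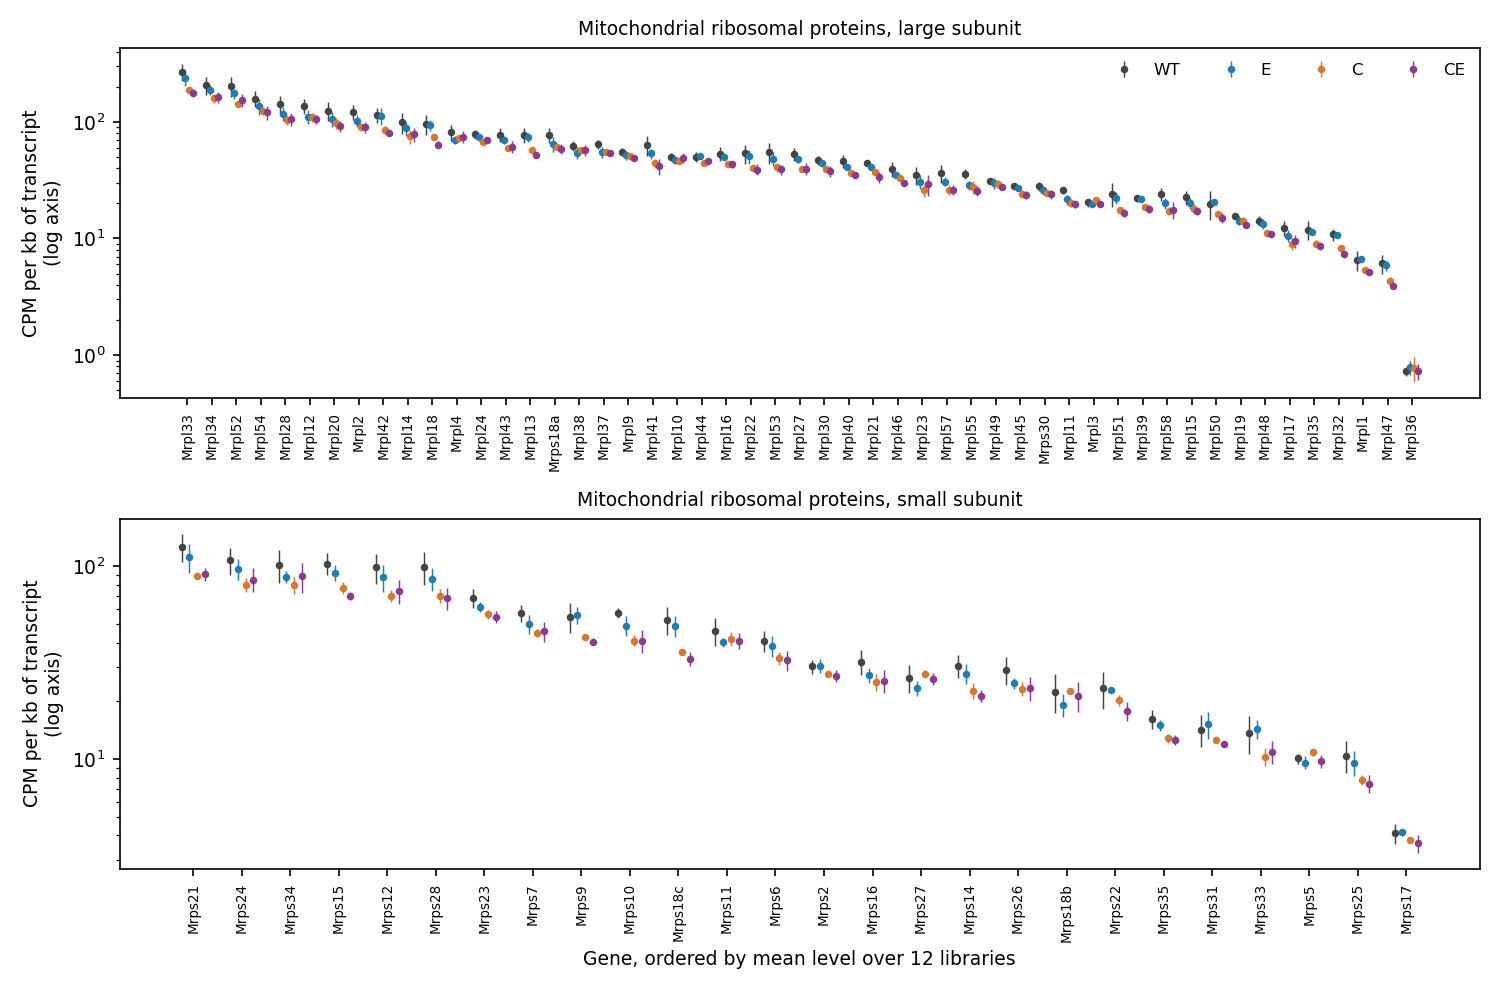
Mean CPM per kilobase of transcript (log axis) for the 51 large-subunit genes (top) and the 26 small-subunit genes (bottom), ordered by their mean over 12 libraries. Points are means of 3 mice in each genotype group and bars are SD; Mrpl33 is highest at 218 and Mrpl36 lowest at 0.754 CPM per kb over all libraries.

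Most of the 78 genes varied in the same direction from library to library. The correlation of a gene's log2 CPM with the mean of the other members, over the 12 libraries, had a median of 0.913, and it was above 0.8 for 58 of 78 genes. The libraries share their depth scaling and their group structure, so this is a description. Mrps28 (0.983), Mrpl15 (0.982) and Mrpl41 (0.980) followed the others most closely. Mrps5 (0.115), Mrpl36 (-0.09) and Mrps27 (-0.11) did not follow them. Mrpl36 had a mean of only 19.8 counts per library, so its values are noisy. The highest library exceeded the lowest by 1.62-fold in the median gene, by 1.22-fold for Mrpl3 and by 2.08-fold for Mrps28.

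Averaged over all 78 genes, the log2 level relative to the WT mean was 0.16 in WT2, -0.17 in WT3 and 0.00 in WT4. In E1 to E3 the values were 0.01, -0.18 and -0.21. C1 to C3 had -0.33, -0.22 and -0.38, and CE1 to CE3 had -0.33, -0.46 and -0.25. The 6 libraries of caspase-deficient mice thus lay below the 6 libraries of caspase-sufficient mice, with C2 only just below E3. CE3, which had next to no Y-linked transcripts, also lay below all WT and E libraries, narrowly at -0.25 against -0.21 in E3. As a share of all counts, the members made up 0.585% in WT2 and 0.418% in CE2, the highest and lowest libraries.

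**Figure D2:**
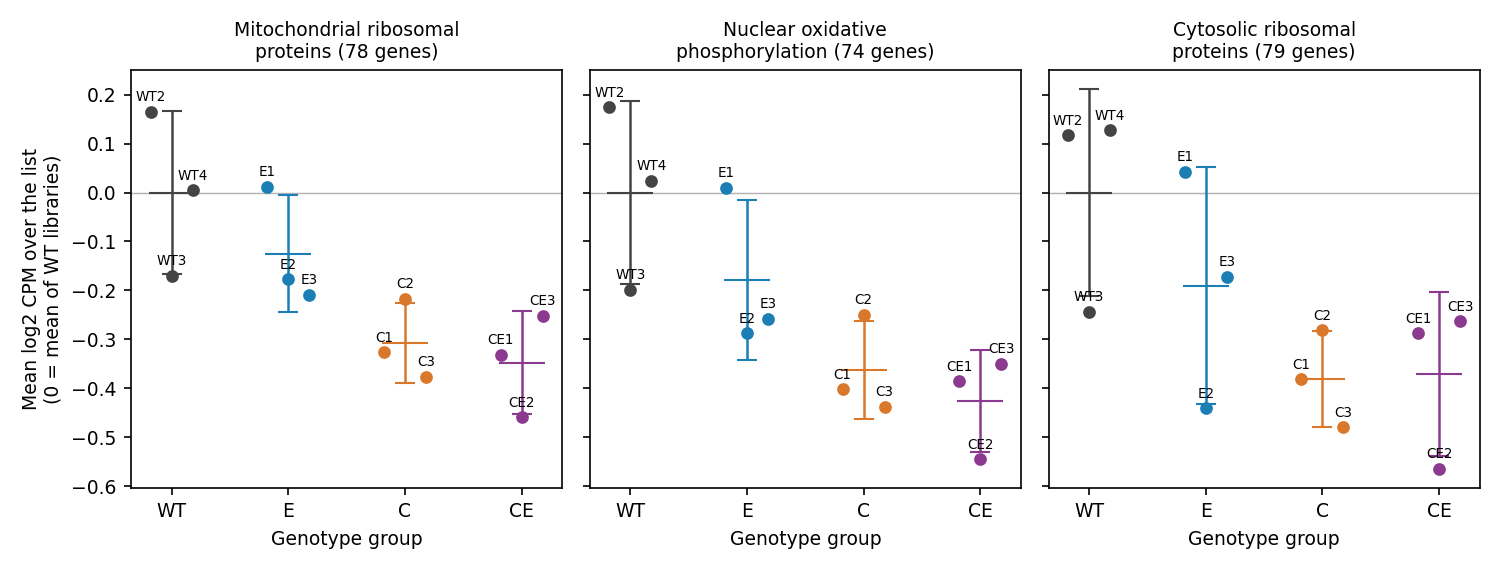
Mean log2 CPM of the 78 genes in each library, relative to the mean of the 3 WT libraries, by genotype group. Each point is 1 mouse; values run from 0.16 in WT2 to -0.46 in CE2, and the C and CE libraries lie below those of WT and E.

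The Emu-myc transgene was compared first on the caspase-sufficient background. In E against WT none of the 78 genes passed an adjusted p of 0.05 in either direction by edgeR, where 0.0484% of all genes tested were called higher and 0.0345% lower. At an unadjusted p under 0.05, 4 members were lower and 0 higher, against 3.26% and 3.32% of all genes. The log2 fold change was below 0 for 69 of 78 genes, against 50.6% of all genes tested, with a median of -0.15 against -0.00 for all genes. That median was -0.04 without WT2 and -0.24 without WT3, -0.06 by limma voom and -0.09 with trends on transcript length and GC content removed. The genes with the smallest p-values were Mrpl55 (log2 fold change -0.33 ± 0.12 SE), Mrpl11 (-0.26 ± 0.10), which sits at the base of the ribosomal stalk, and Mrpl12 (-0.32 ± 0.13), a stalk protein. Their adjusted p-values were 0.703, 0.709 and 0.720.

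Mrpl12 had 201, 151 and 192 CPM in WT and 164, 146 and 125 CPM in E. The E libraries were lower on average, but E1 exceeded WT3, so the groups overlapped. All E libraries lay below all WT libraries for 1 member, against 3.56% of all genes tested. The upward values with the smallest p-values were small: Mrps31 0.09, Mrps33 0.07 and Mrpl1 0.04 on the log2 scale.

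On the caspase-deficient background, CE against C, again 0 of 78 genes passed the threshold by edgeR (0.0622% of all genes called higher and 0.145% lower), and 0 had an unadjusted p under 0.05 (2.06% of all genes higher and 3.08% lower). The log2 fold change was below 0 for 56 of 78 genes (47.8% of all genes), with a median of -0.04. Mrpl18 (-0.21 ± 0.13) and Mrpl32 (-0.17 ± 0.11) had the smallest p-values among the downward values, and Mrps34 (0.15 ± 0.15) and Mrpl23 (0.17 ± 0.17) were among the upward ones. The adjusted p was 0.999 for each of the 78 genes. The transgene effect differed between the backgrounds for 0 of 78 members, and for 0% of all genes tested, in the interaction test. At an unadjusted p under 0.05 that count was also 0 of 78, against 0.781% of all genes above 0 and 1.33% below 0. The interaction estimate was above 0 for 57 of 78 genes, with a median of 0.09, against 7383 of 14473 and 0.005 over all genes tested. It was also above 0 for 77 of 79 cytosolic ribosomal protein genes and 63 of 74 nuclear oxidative phosphorylation genes.

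Absence of Casp1 and Casp11 went with lower values of most of the genes. In C against WT the log2 fold change was below 0 for 73 of 78 genes, against 51.8% of all genes, with a median of -0.35 against -0.01 for all genes, or 1.27-fold. None passed an adjusted p of 0.05 by edgeR (0.359% of all genes were called higher and 0.297% lower). At an unadjusted p under 0.05, 59 members were lower and 0 higher, against 12.7% and 10.5% of all genes. All 3 C libraries lay below all 3 WT libraries for 46 of 78 genes, against 13.9% of all genes. The smallest adjusted p-values were 0.0513 for Mrps18c (-0.55 ± 0.12), 0.0555 for Mrps10 (-0.47 ± 0.12), a protein of the small-subunit head, and 0.0558 for Mrpl33 (-0.53 ± 0.13). This count moved with the test, as did that over all genes (95 called in either direction by edgeR). DESeq2 called 27 of the 78 and 1206 genes in all, limma voom 20 and 1773, edgeR without WT3 39 and 781, and without WT4 28 and 2258. The median over the members was -0.15 with a covariate for Y-linked transcripts, -0.19 with trends on transcript length and GC content removed and -0.23 without WT2. That covariate did not vary within WT, E or C, so it was fitted only from CE3 against CE1 and CE2. The value with it therefore carries the difference of 1 CE mouse over to C.

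In CE against E, which shares no library with C against WT, 4 of the 78 genes fell and 0 rose at an adjusted p of 0.05, where 1.11% of all genes were called lower and 0.477% higher. The log2 fold change was below 0 for 69 of 78 genes (49.6% of all genes), with a median of -0.20. At an unadjusted p under 0.05, 32 members were lower and 0 higher, against 1731 and 1540 of 14473 genes tested, and the CE libraries all lay below the E libraries for 34 genes (15.1% of all genes). The 4 were Mrpl13 and Mrpl18, large-subunit proteins with bacterial homologues, Mrpl32, whose processing by the m-AAA protease is a step of mitochondrial ribosome assembly, and Mrps18c, 1 of 3 mammalian relatives of the bacterial small-subunit protein S18. All 4 calls were lost when any 1 of the 6 libraries was left out, and calls over all genes then fell from 229 to between 2 and 32, whereas the log2 fold changes stayed between -0.62 and -0.44. With a covariate for Y-linked transcripts 0 members and 2 genes in all were called, with a median over the members of -0.08, and with length and GC trends removed 0 and 30, with a median of -0.11.

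Mrps18c had 51.3, 37.6 and 41.1 CPM in WT2 to WT4 and 45.8, 36.9 and 37.6 CPM in E1 to E3. Its values were 29.6, 29.8 and 29.2 CPM in C1 to C3 and 27.4, 24.7 and 29.3 CPM in CE1 to CE3. Every caspase-deficient library was below every caspase-sufficient one, and CE was 1.48-fold below E (log2 fold change -0.56 ± 0.13, adjusted p = 0.0417).

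Mrpl32 had 36.9, 30.8 and 30.1 CPM in WT, 32.4, 31.9 and 32.97 in E, 23.7, 26.8 and 23.8 in C, and 23.97, 20.8 and 21.4 in CE. Again no C or CE library reached the lowest WT or E library, and the 3 E libraries were nearly equal. The log2 fold change in CE against E was -0.56 ± 0.11 (1.47-fold lower, adjusted p = 0.0398).

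Mrpl13 had 110, 88.8 and 84.7 CPM in WT, 99.8, 86.4 and 85.7 in E, 68.8, 71.7 and 70.5 in C, and 68.5, 62.7 and 60.5 in CE. The C libraries were tightly grouped below both caspase-sufficient groups. CE was 1.42-fold below E (log2 fold change -0.50 ± 0.11, adjusted p = 0.0399).

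Mrpl18 belongs to the family that in bacteria binds 5S ribosomal RNA. It had 141, 110 and 96.6 CPM in WT, 128, 104 and 108 in E, 88.2, 95.1 and 86.1 in C, and 82.8, 78.05 and 72.6 in CE. The highest C library lay just below the lowest WT library, and CE was separated from E by a wider gap (log2 fold change -0.55 ± 0.13, 1.46-fold lower, adjusted p = 0.0456). The annotated span of Mrpl18 overlaps that of Tcp1, and whether reads were counted by strand is not given in the sources used here.

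**Figure D3:**
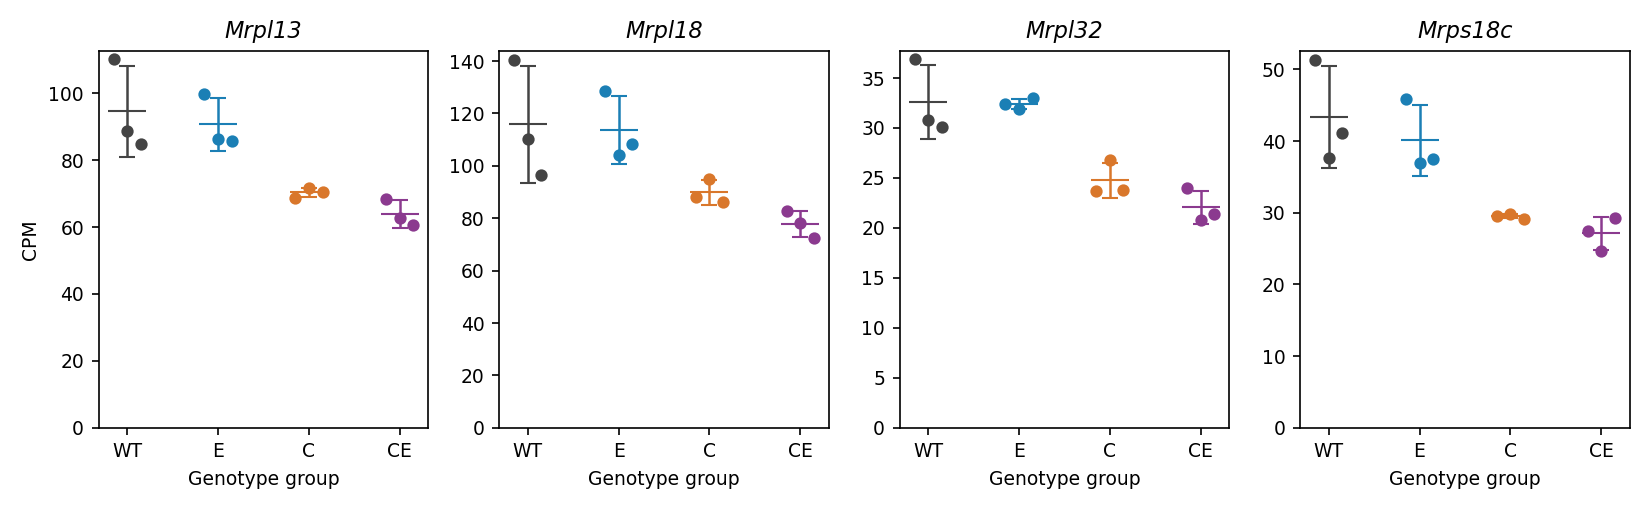
CPM of Mrpl13, Mrpl18, Mrpl32 and Mrps18c in each library (points, 1 mouse each), with group mean and SD (bars, n = 3), by genotype group. In each panel the 6 C and CE libraries lie below the 6 WT and E libraries.

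The values in both caspase comparisons can be set side by side. Both were below 0 for 68 of 78 members (87.2%, against 38.1% of all genes tested), and across the 78 genes Pearson's r between them was 0.639 and Spearman's rho 0.583. Over all genes tested these were 0.526 and 0.606. Genes share libraries and are not independent replicates.

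**Figure D4:**
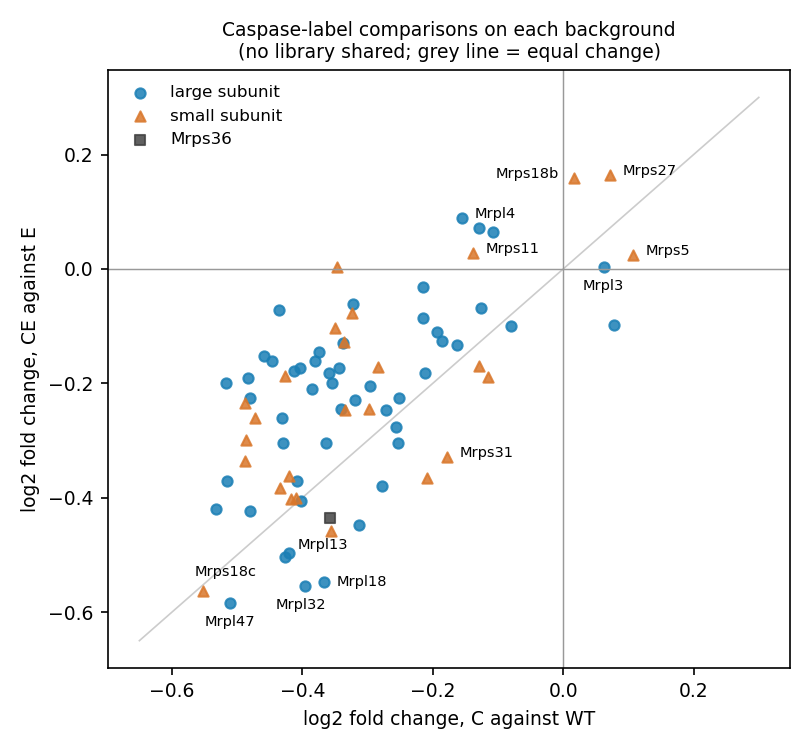
Log2 fold change of each of the 78 genes in C against WT (x axis) and in CE against E (y axis), 2 comparisons that share no library. Circles are large-subunit genes, triangles small-subunit genes and the square Mrps36; 68 of 78 genes lie below 0 on both axes.

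Averaged over both backgrounds, a contrast added after the data were seen (C and CE against WT and E, 6 libraries a side), 49 of the 78 genes fell and 0 rose at an adjusted p of 0.05 by edgeR. The background was high, with 11.8% of all genes called lower and 9.26% higher. The median log2 fold change was -0.28 (1.21-fold), and 74 of 78 genes were below 0, against 7234 of 14473 genes tested. For 25 of 78 genes all 6 caspase-deficient libraries lay below all 6 others, against 4.63% of all genes. With a covariate for Y-linked transcripts, set only by CE3 against CE1 and CE2, calls over all genes fell from 3042 to 2. None of the 49 calls remained, and the median log2 fold change was -0.12. None remained without C1 and C3 either, when the median was -0.22 and 20 genes were called in all. With length and GC trends removed, 18 members and 1529 genes in all were called, and the median was -0.15.

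In the averaged contrast, where 11.8% of all genes tested were called lower, the decrease was spread over both subunits. In the large subunit 33 of 51 genes fell, with a median log2 fold change of -0.28, and in the small subunit 15 of 26, also with a median of -0.28. Of the members with bacterial homologues 30 of 46 fell, and of the mitochondria-specific ones 18 of 31, with medians of -0.28 and -0.27. Mrps36, the dehydrogenase component, also fell, by 0.40 on the log2 scale (adjusted p = 0.0128).

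Other members with large changes averaged over both backgrounds included 2 of the large subunit. Mrpl47, a protein near the exit of the nascent peptide tunnel, had 24.9, 19.2 and 17.6 CPM in WT, 21.4, 20.4 and 17.5 in E, 13.6, 16.01 and 13.7 in C, and 13.9, 12.9 and 12.8 in CE. No caspase-deficient library reached the lowest of the others, E3 (log2 fold change -0.55 ± 0.10, adjusted p = 0.00380). Mrpl33 had 153, 109 and 123 CPM in WT, 134, 99.5 and 108 in E, 88.1, 93.9 and 83.9 in C, and 87.2, 77.8 and 90.5 in CE. The gap between C2 and E2 was narrow, and the log2 fold change was -0.48 ± 0.09 (adjusted p = 0.00485). In the small subunit, Mrps15 had 112, 89.1 and 89.5 CPM in WT, 96.8, 82.4 and 81.3 in E, 76.0, 74.4 and 66.7 in C, and 69.03, 63.0 and 65.1 in CE. Its groups did not overlap either (log2 fold change -0.41 ± 0.08, adjusted p = 0.00403). Smaller decreases that passed the test included Mrpl58 (-0.34, adjusted p = 0.0206), which has peptidyl-tRNA hydrolase activity, Mrps12 (-0.36, 0.0228) of the decoding centre, and Mrpl45 (-0.20, 0.0462), which links the ribosome to the inner membrane.

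Values above 0, none past the threshold, were seen for 4 genes. They were Mrps27 (0.12 ± 0.08, adjusted p = 0.328), a pentatricopeptide repeat protein, Mrps18b (0.09 ± 0.12, 0.619), Mrps5 (0.07 ± 0.07, 0.527), a protein of the small-subunit body, and Mrpl3 (0.03 ± 0.06, 0.747), a large-subunit protein near the peptidyl transferase centre. Mrps27 had 41.9, 46.2 and 57.7 CPM in WT, 46.4, 43.4 and 39.01 in E, 48.7, 53.2 and 51.3 in C, and 47.6, 44.95 and 51.8 in CE. All 3 C libraries exceeded all 3 E libraries, but the C and CE libraries together overlapped with those of WT and E, and the highest value was in WT4.

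The 3 relatives of bacterial S18 differed in their values. Mrps18c fell by 0.56 on the log2 scale, Mrps18a had -0.23 ± 0.09 (adjusted p = 0.0708) and Mrps18b 0.09. Mrps18b had 23.9, 18.7 and 29.7 CPM in WT, 21.3, 22.9 and 17.4 in E, 24.2, 24.5 and 24.4 in C, and 21.6, 19.8 and 27.4 in CE. All 3 C libraries exceeded all 3 E libraries, while the caspase-deficient and caspase-sufficient libraries together overlapped, unlike those of Mrps18c. The difference between the paralogs was not tested.

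**Figure D5:**
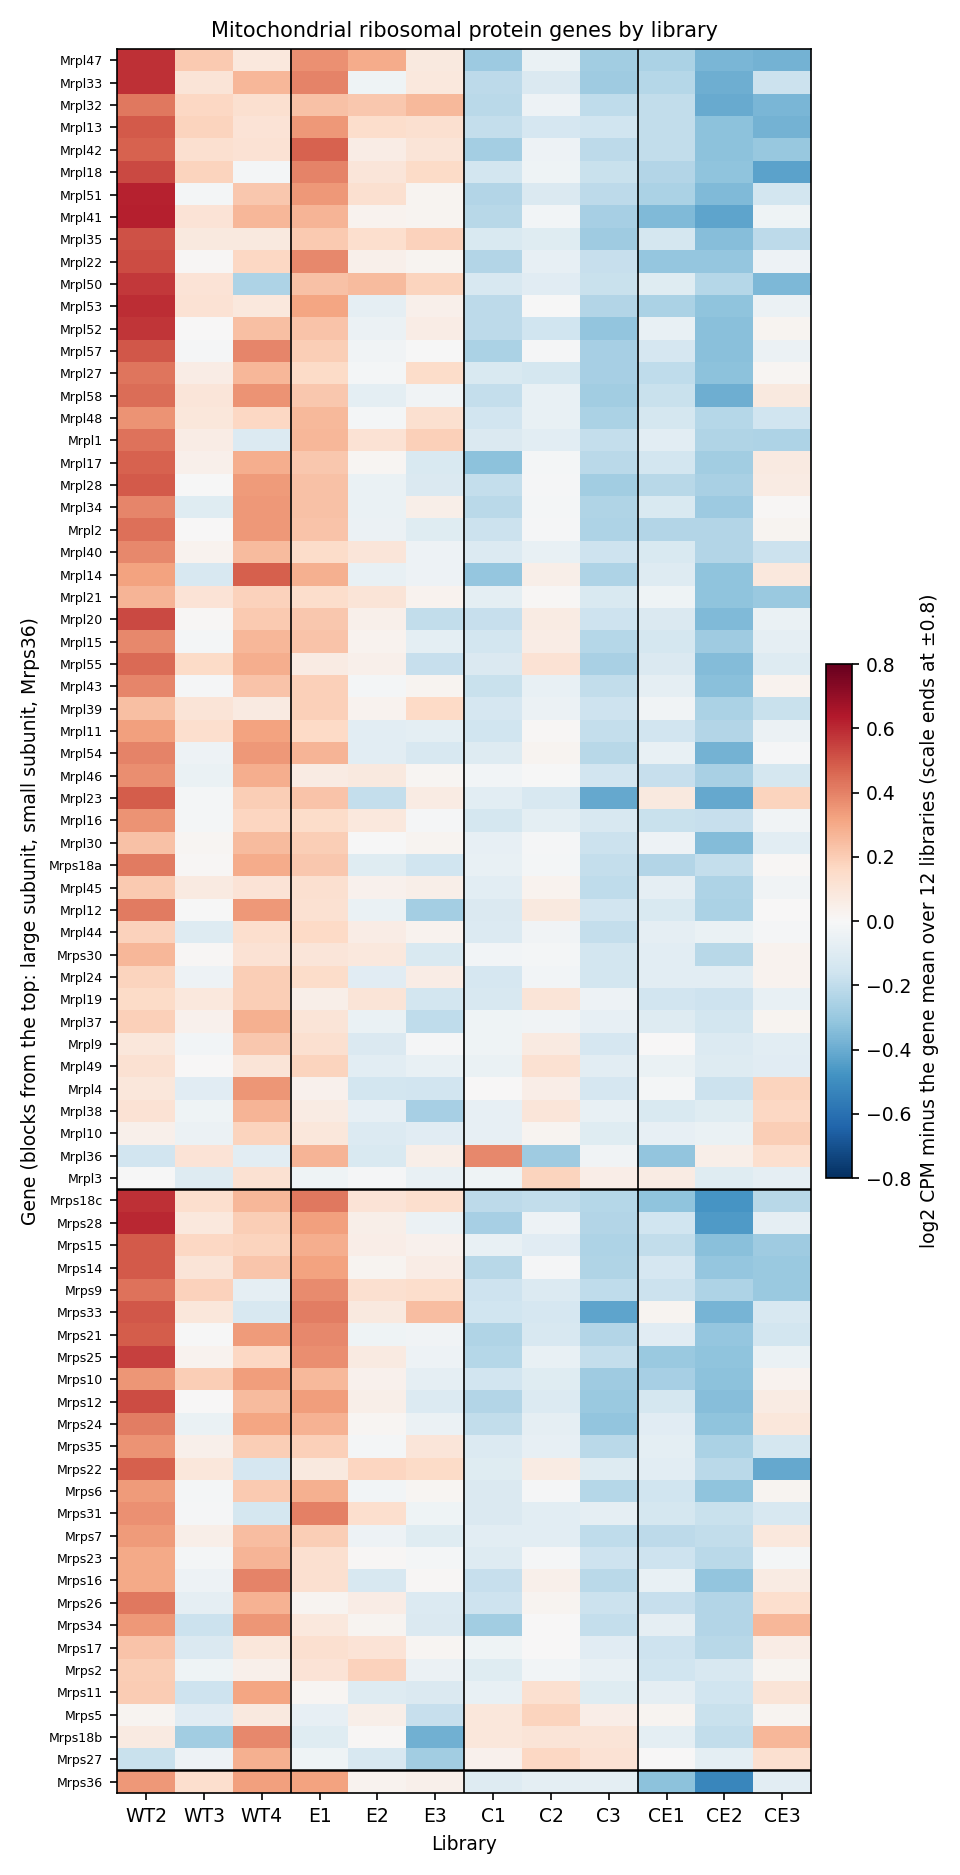
Log2 CPM of each of the 78 genes in each library minus the gene's mean over 12 libraries, with large-subunit genes at the top, small-subunit genes below and Mrps36 last. WT2 and E1 are high and C3 and CE2 low for most genes, while Mrpl3, Mrpl36, Mrps5, Mrps18b and Mrps27 do not follow this order. Mrpl36 had a mean of only 19.8 counts per library.

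The members had shorter transcripts than genes at large, with a median of 1328 bases against 2989, a median GC content of 50.01% against 50.3%, and a median level of 62.9 CPM against 25.3 CPM. Within the 78 genes, the log2 fold change averaged over both backgrounds had a Pearson's r of 0.18 with log2 transcript length, 0.26 with GC content and -0.02 with log2 mean CPM.

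The start regions of the genes were examined because many of them are shared with a second gene. A promoter was found in the RefSeq table (GRCm38.p6) for 69 of the 78 genes. For 21 of the 69 (30.4%) the start of another gene on the opposite strand lay within 500 bases upstream, against 10.9% of 10518 tested protein-coding genes. Of 3 of the genes called in CE against E such stretches are printed between the starts, on the strand of the named gene from 5′ to 3′, together with that of Mrps11 and Mrpl46, which are both members. They are Mrpl18 and Tcp1 (chr17:12916092-12916328, minus strand, 237 bases), Mrpl32 and Psma2 (chr13:14613038-14613241, minus strand, 204 bases), Mrps18c and Helq (chr5:100798601-100798758, plus strand, 158 bases) and Mrps11 and Mrpl46 (chr7:78783090-78783130, plus strand, 41 bases). The Mrpl18 stretch lies within that gene's annotated span (chr17:12911345-12917787), which extends upstream of the start used here. Capitals mark matches on either strand to the motifs named after the sequences.
Mrpl18: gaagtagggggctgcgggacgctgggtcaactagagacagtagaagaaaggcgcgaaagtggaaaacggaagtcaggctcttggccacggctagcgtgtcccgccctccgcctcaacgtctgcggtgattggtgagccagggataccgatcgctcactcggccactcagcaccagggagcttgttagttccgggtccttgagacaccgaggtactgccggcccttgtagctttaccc
Mrpl32: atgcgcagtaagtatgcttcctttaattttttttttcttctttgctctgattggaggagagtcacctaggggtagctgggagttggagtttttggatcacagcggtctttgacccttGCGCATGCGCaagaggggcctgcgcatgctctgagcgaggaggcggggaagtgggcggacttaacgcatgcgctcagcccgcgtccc
Mrps18c: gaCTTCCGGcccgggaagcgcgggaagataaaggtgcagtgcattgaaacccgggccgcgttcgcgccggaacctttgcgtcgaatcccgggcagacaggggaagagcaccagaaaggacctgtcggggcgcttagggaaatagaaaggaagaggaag
Mrps11: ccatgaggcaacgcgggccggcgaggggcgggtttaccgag
The capitals in the stretch before Mrpl32 are the palindromic consensus of the factor NRF1, and those in the stretch before Mrps18c are CCGGAAG, an ETS-family core, on the opposite strand. Neither stretch of the other pairs held any of the motifs searched.

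Over the promoter windows, 250 bases before to 50 after the start and both strands, the NRF1 consensus, as capitalised above, occurred in 4.35% of 69 members and 2.05% of 10518 tested protein-coding genes. CCGGAAG occurred in 34.8% and 17.8%, AANATGGCG, a YY1 core, in 15.9% and 5.15%, and the E-box CACGTG, which Myc with Max can bind, in 7.25% and 10.1%. These windows extend past the printed stretches. That of Mrpl18 held CCGGAAG, that of Mrps11 held AANATGGCG and that of Mrps18c also held CACGTG. Among members that fell in the averaged contrast CCGGAAG was present in 18 of 45 promoters, and among the other members in 6 of 24. AANATGGCG was present in 5 of 45 and 6 of 24. These are matches of letters and no test was made.

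Of the 19 partners tested that are not members themselves, 6 fell and 0 rose in the averaged contrast by edgeR (11.8% and 9.26% of all genes), with a median log2 fold change of -0.16, against -0.29 for the members beside them. With the Y-linked covariate this contrast called 2 genes in all. Psma2, a proteasome subunit gene next to Mrpl32, fell by 0.36 on the log2 scale (adjusted p = 0.00706) and Tcp1, a chaperonin gene next to Mrpl18, by 0.21 (adjusted p = 0.0281). Helq, a helicase gene next to Mrps18c, had a log2 fold change of -0.00 (adjusted p = 0.990), with 17.2 to 22.01 CPM in WT and E and 17.6 to 21.2 CPM in C and CE. Its range in C and CE lay within that in WT and E. Ptcd2, next to Mrps27, fell by 0.21 (adjusted p = 0.0336), while Mrps27 itself had 0.12.

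Mrpl46 and Mrps11, whose starts are 42 bases apart, also had different values. Mrpl46 had 49.98, 37.1 and 47.1 CPM in WT, 40.3, 40.6 and 38.98 in E, 37.9, 38.5 and 34.7 in C, and 33.9, 32.1 and 34.95 in CE. It fell by 0.26 on the log2 scale (adjusted p = 0.0288), although WT3 lay within the C range. Mrps11 had 51.4, 39.8 and 55.6 CPM in WT, 45.1, 41.5 and 41.2 in E, 42.8, 48.7 and 41.7 in C, and 42.4, 39.9 and 47.96 in CE. The 4 ranges of Mrps11 overlapped, and its log2 fold change was -0.06 (adjusted p = 0.684).

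The RNA partners of these proteins had lower values in the same libraries. The mitochondrial ribosomal RNA gene mt-Rnr1 had 751, 325 and 213 CPM in WT, 423, 343 and 357 in E, 199.98, 193 and 162 in C, and 143, 121 and 155 in CE. WT varied widely, and C1 was close to WT4. In CE against E mt-Rnr1 fell by 1.42 on the log2 scale (adjusted p = 0.0403) and mt-Rnr2 by 1.43 (adjusted p = 0.0398). How ribosomal RNA was handled in library preparation is not given in the sources used here.

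Other genes of the mitochondrial translation system are listed by role, with calls from the averaged contrast by edgeR, in which 11.8% of all genes were called lower and 9.26% higher. Among the 5 subunit genes that carry other names, 3 fell (Chchd1 -0.34, Aurkaip1 -0.27 and Gadd45gip1 -0.25) and 2 did not pass (Dap3 -0.01 and Ptcd3 -0.20). Of 23 assembly and ribosomal RNA modification genes 4 fell and 0 rose, with a median log2 fold change of -0.15, a share near that of all genes. The 4 were Ngrn (-0.34), Fastkd2 (-0.28), Gtpbp10 (-0.37) and Malsu1 (-0.21). Of 14 translation factor genes 3 fell and 0 rose, with a median of -0.13. They were Slirp (-0.61) and its partner Lrpprc (-0.30), which stabilise mitochondrial messenger RNAs, and the elongation factor gene Tsfm (-0.39), whereas its partner Tufm had 0.10 (adjusted p = 0.398). Of 8 mitochondrial transcription and replication genes 3 fell, Ssbp1 (-0.53), Tefm (-0.40) and Tfam (-0.36), and 2 rose, the mitochondrial RNA polymerase gene Polrmt (0.23, adjusted p = 0.0369) and the DNA polymerase gene Polg (0.24, adjusted p = 0.0455).

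The lower values were not particular to the mitochondrial ribosome. In C against WT the median log2 fold change was -0.39 over 79 cytosolic ribosomal protein genes, all 79 of them below 0, and -0.42 over 74 nuclear oxidative phosphorylation genes, beside -0.35 for the members. In CE against E these medians were -0.19, -0.25 and -0.20. The averaged contrast called 36 of 79 cytosolic ribosomal protein genes, 54 of 74 oxidative phosphorylation genes and 49 of 78 members lower. Of all genes tested it called 11.8% lower and 9.26% higher. Differences between these lists were not tested.

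Markers of other cell types and of the cell cycle also moved between the groups. Over all genes tested, 1.11% were called lower in CE against E, and 11.8% lower and 9.26% higher in the averaged contrast. Of 16 G2/M genes, 15 had values below 0 in both caspase comparisons, with medians of -0.26 and -0.30, and 4 fell in CE against E. Of 10 macrophage genes 2 fell in CE against E, with a median of -0.98, and 5 fell in the averaged contrast, with a median of -0.76, and their summed level was 181 to 205 CPM in E and 147 to 212 CPM in CE. Of 8 basophil and mast cell genes all 8 were below 0 in C against WT, with a median of -0.72, and 5 fell in the averaged contrast, with a median of -0.83. Their summed level was 412 to 523 CPM in WT, 350 to 425 in E, 348 to 386 in C and 320 to 400 in CE. The 11 B-lineage genes tested summed to 83.2 to 98.4 CPM in E and 82.9 to 88.7 in CE, against 107 to 214 in WT and 189 to 287 in C. In C against WT 10 of the 11 were above 0, with a median of 0.71. Of 12 stem cell markers 4 rose in the averaged contrast, with a median of 0.12, and they summed to 685 to 821 CPM in WT, 818 to 927 in E, 828 to 900.4 in C and 948 to 1020.1 in CE. For 13 erythroid genes the median was -0.32 in C against WT and -0.37 in CE against E. In the averaged contrast their median was -0.32, and 2 fell and 0 rose. There 3 of 7 T and NK genes fell and 0 rose, with a median of -0.21, and 2 of 8 neutrophil genes fell and 0 rose, with a median of -0.17. The part of these lists in the members' values was not tested.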

How the data were processed

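Total RNA of sorted hematopoietic stem cells from 12 mice was sequenced with Illumina protocols, per the labels. The deposited file holds raw counts per gene, identified by Entrez gene number. STAR 2.5.3 and the mm10 build are named in the submitters' processing notes; the counting tool, and with it the strand setting, is not given in the sources used here. Of 27179 genes, 25275 matched a RefSeq symbol. Libraries were grouped by genotype, 3 mice each; p-values measure the spread between these mice.

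Counts were tested with edgeR 4.0.16 (R 4.3.3): filterByExpr by group (14473 genes tested), TMM scaling, 1 quasi-likelihood fit of all 12 libraries, contrasts of group means, Benjamini-Hochberg adjustment over all genes tested and a threshold of 0.05. The error beside a log2 fold change is its standard error. CPM used effective library sizes, and log2 CPM a prior count of 2. Library depth was 24529611 to 34065910 counts. The procedure was tested on simulated data. All members called in CE against E were named, and some of those called in the averaged contrast. In the 4 group comparisons up to 3 further members in each direction were named from those with the smallest p-values.

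The members and lists were chosen with earlier results of these data known. The contrast of C and CE against WT and E, and the promoter and start-region descriptions, were added after seeing the data. Alternatives were RLE scaling, other filters, DESeq2 1.42.0, limma 3.58.1 voom, only the groups compared, a replicate block, a covariate for Y-linked transcripts, removal of length and GC trends and leaving out libraries. Lengths for the GC and length alternative were first taken from the longest transcript of any biotype and then, after its values were seen, from the longest protein-coding one; both are reported. Promoter sequences are from RefSeq, GRCm38.p6.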

Additional observations from a re-analysis of the deposited data

How the results depend on the processing

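Between E and WT and between CE and C, 0 members passed under each alternative run. For C against WT, where edgeR called 0, 43 were called with no filter on low counts, 1 with a stricter filter, 27 by DESeq2, 20 by limma voom, 24 with a replicate block and 3 with length and GC trends from the longest transcript of any biotype removed; leaving out 1 library gave 0 to 39, the highest without WT3. Over all genes, calls in C against WT ran from 7 to 2258 without 1 library and from 1 to 2045 over the other alternatives. The members' median of -0.35 was -0.15 with the Y-linked covariate and -0.19 with length and GC trends removed. For CE against E, where 4 were called, 13 were called with no filter, 13 by DESeq2, 16 by voom, 11 with only the groups compared and 13 with the replicate block. The count was 0 with the Y-linked covariate, 0 with either form of length and GC removal, and 0 to 0 over the 6 fits without 1 library. The averaged contrast (49) gave 0 with the Y-linked covariate (median -0.12), 18 and 21 with the length and GC trends of protein-coding transcripts and of any biotype removed, 0 without C1 and C3, and 26 to 57 without 1 library (28 without WT2, 26 without E1, 30 without C1, 26 without C3, 29 without CE2). Over all genes, calls in CE against E ran from 2 to 32 without 1 library and from 2 to 1475 over the other alternatives. In the averaged contrast these ranges were 1594 to 4667 and 2 to 4430. The cause of these shifts was not tested. The Y-linked covariate varied only within CE, so the values with it rest on CE3 against CE1 and CE2. The replicate block followed the label numbers, and that of WT4 occurred in no other library. The block therefore fitted WT4 exactly, in effect leaving WT4 out.

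Deviations of same-numbered libraries from their group means were weakly correlated (4 of 15 pairs over r = 0.1, range -0.244 to 0.166). The labels do not pair the mice, and with 3 mice a group these correlations cannot show whether the replicate numbers do. Members below 0 in CE against C numbered 35 to 71 without 1 library, and the median of -0.04 became 0.0017 with length and GC trends removed, 0.0064 without C2 and 0.0042 without CE2. Members with an interaction estimate below 0 (21) numbered 39 without C1 and C3 and 14 to 43 without 1 library. Some small values changed sign. In E against WT these were Mrps31 (-0.048 with the block, -0.017 to 0.27 without 1 library), Mrps33 (-0.13, -0.050 to 0.28) and Mrpl1 (-0.094, -0.058 to 0.23, and -0.038 and -0.025 with length and GC trends removed in either form). In C against WT they were Mrpl3 (-0.0028 to 0.13) and Mrps27 (-0.0057 to 0.22) without 1 library. Mrpl4 in CE against E became -0.017 with the any-biotype trends and -0.0020 to 0.16 without 1 library, and Mrps34 in CE against C became -0.0014 without C1 and C3. In the averaged contrast Mrpl30 became 0.0064 and 0.013 with the trends removed, and Mrps7 0.0028 with the Y-linked covariate.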
